A study of Arabidopsis thaliana with 6 samples.

Results

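The genes described here are the SQUAMOSA PROMOTER BINDING PROTEIN-LIKE (*SPL*) transcription factor genes of *Arabidopsis thaliana* whose transcripts are targets of the microRNA miR156. The rule that picks them is a list of loci and holds no measured value, though the list was drawn up with earlier results of these data known. It names *SPL2* (AT5G43270), *SPL3* (AT2G33810), *SPL4* (AT1G53160), *SPL5* (AT3G15270), *SPL6* (AT1G69170), *SPL9* (AT2G42200), *SPL10* (AT1G27370), *SPL11* (AT1G27360), *SPL13A* (AT5G50570) and *SPL15* (AT3G57920). Of these 10 loci, 9 were matched by at least 1 probe, and they carried 19 of the 43603 probes tested, against 25433 genes matched in all. No probe was matched to *SPL13A*. The 2 probes of its near-identical copy *SPL13B* (AT5G50670) are given beside the 19, since transcripts of such close copies can bind the same probe, and they are left out of every count of the 19.

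Total RNA was taken from the aerial tissue of 17-day-old seedlings and measured on 1-colour oligonucleotide arrays, 3 for each group. The control group was the Col-0 accession. The other group, OsbHLH068OE, carried the rice bHLH gene *OsbHLH068* under the constitutive 35S promoter, and per the study's text it was 1 transformed line, *35S::OsbHLH068* (9), so that effects of the gene and of that line cannot be told apart. The comparison addressed how expression in seedlings of this age differed when the rice gene was overexpressed. Per the study's text, Col-0 flowered at about 17 days under long days and this line flowered later. The groups were thus matched by age and not by flowering stage, so that effects of genotype and of stage cannot be told apart. Values are log2 signals after background correction and quantile normalization, and a difference is OsbHLH068OE minus Col-0 on that scale.

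In young plants miR156 is abundant and holds down the *SPL* transcripts by cleavage and by blocking translation. Its level falls as the shoot ages, and the SPL proteins that accumulate then move the plant from juvenile to adult leaves and promote flowering, among others through the MADS-box genes *SOC1* and *FUL*. The family members differ in weight: *SPL3*, *SPL4* and *SPL5* encode small proteins that act mainly on floral meristem identity, *SPL9* and *SPL15* act in the shoot apex on leaf production and flowering, and *SPL2*, *SPL10* and *SPL11* affect leaf shape and the lateral organs of the inflorescence.

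None of the 19 probes had a Benjamini-Hochberg adjusted P under 0.05, a level that 0.534% of all probes passed. None was a differentially expressed probe (DEP), taken here as a log2 difference above 1 or below −1 with an unadjusted limma P under 0.05, and 1.17% of all probes were. The study took its P from the methods' t-test instead, and with that P 0 of the 19 were DEPs as well. At an unadjusted P under 0.05, 4 of the 19 were lower in OsbHLH068OE (21.1%, against 8.80% of all probes) and 0 were higher (against 11.0%). Those 4 were both probes of *SPL3*, 1 of 3 probes of *SPL2* and 1 of 4 probes of *SPL10*. All 3 OsbHLH068OE arrays lay below all 3 Col-0 arrays for 6 of the 19 (31.6%, against 12.2% of all probes) and above them for 0 (against 14.8%). Overall 13 of the 19 differences were below 0 (68.4%), compared with 46.8% of all probes. The median difference was −0.06 for the 19 and 0.02 for all probes, and the 19 ran from −0.59 to 0.24. Several probes read 1 gene, so these counts are not counts of independent genes. With the brightest probe standing for each gene, 5 of the 9 genes were lower and 4 were higher in OsbHLH068OE, and 1 of the 9 had an unadjusted P under 0.05.

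The sequence of 1 of the probes was at hand. It is shown because no other was available, and it belongs to the *SPL3* probe with the lowest adjusted P of the 19. It holds 60 bases, of which 27 are G or C, and *SPL3* lies on chromosome 2.
*SPL3* A_84_P11678: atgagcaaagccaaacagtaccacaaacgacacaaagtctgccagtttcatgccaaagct

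Among the small-protein genes, *SPL3* stood lower in OsbHLH068OE on both of its probes. The probe printed above had log2 signals of 12.52, 12.59 and 12.60 in Col-0 replicates 1, 2 and 3 and of 11.87, 12.01 and 12.20 in OsbHLH068OE replicates 1, 2 and 3. The groups did not overlap, with means of 12.57 ± 0.0400 in Col-0 and 12.03 ± 0.165 in OsbHLH068OE (SD, n = 3). The difference was −0.54 (SE 0.105, 95% interval −0.80 to −0.28), which put the OsbHLH068OE level at 0.688 times that of Col-0 (95% interval 0.576 to 0.822). Its limma adjusted P = 0.0937 missed the threshold. As whole aerial tissue was measured, fewer *SPL*-expressing cells and less *SPL* RNA per cell cannot be told apart here or in the other differences below. An exact permutation test on 3 arrays against 3 cannot give a two-sided p below 0.1, and it gave that smallest value for this probe.

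The second *SPL3* probe, A_84_P836743, moved in parallel. It read 12.27, 12.49 and 12.48 in Col-0 and 11.60, 11.83 and 12.15 in OsbHLH068OE, again without overlap. Its difference was −0.55 (95% interval −0.93 to −0.17, limma adjusted P = 0.154). Both scanned slides held arrays of both groups: replicate 1 of each group was on slide 1, and replicates 2 and 3 were on slide 2. Within them the first probe differed by −0.65 on slide 1 and −0.48 on slide 2, and the second by −0.67 and −0.49, so that *SPL3* was lower in OsbHLH068OE on either slide. With slide as a block the adjusted P was 0.0531 for the first probe and 0.0663 for the second, in a fit where 2.33% of all probes and 0 of the 19 passed 0.05.

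Among the 9 genes, *SPL3* was the 1 whose call depended on the settings. The first probe passed 0.05 with a normexp offset of 50 (limma adjusted P = 0.0331), where 3.59% of all probes passed. So it did without background correction (limma adjusted P = 0.0346, 3.49% of all probes) and with an intensity trend and a robust prior (limma adjusted P = 0.0304, 3.16%). With dim probes left out it passed as well (limma adjusted P = 0.0411), along with 4.26% of the 31272 probes kept. It was the only one of the 19 to do so in these 4 fits. With an offset of 16, where 1.82% of all probes passed, none of the 19 did. The size of the difference moved little, from −0.63 to −0.46 over the 20 alternatives tried.

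**Figure D1:**
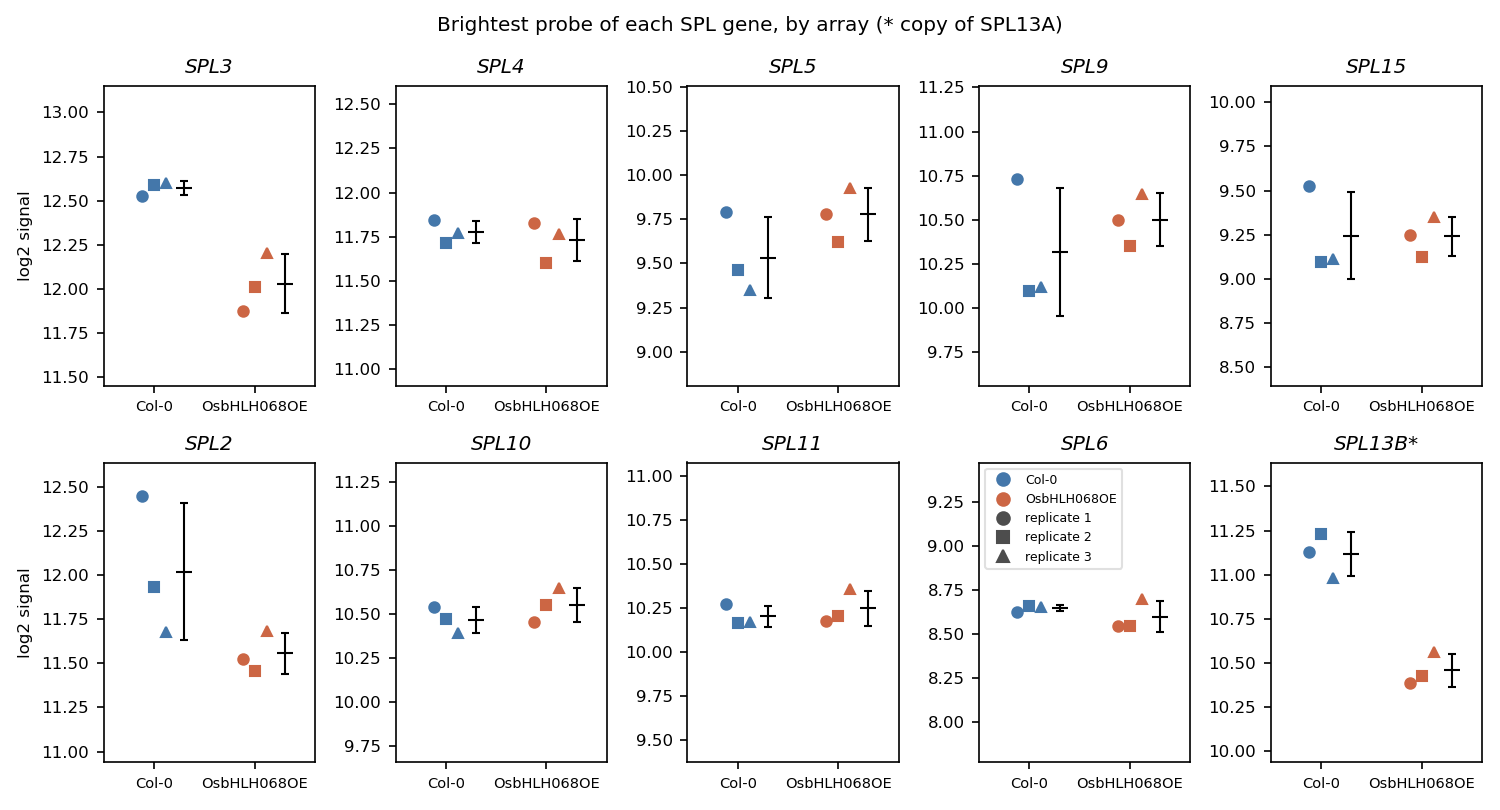
Log2 signal (vertical axes, all of equal span) of the brightest probe of each *SPL* gene on each of the 6 arrays; marker shape gives the replicate number, and the bar beside each group is the mean with its SD (n = 3). For *SPL3*, the Col-0 arrays lie between 12.52 and 12.60 and the OsbHLH068OE arrays between 11.87 and 12.20, as separate clusters; *SPL13B* is separate too, and the groups of the other genes overlap.

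*SPL4*, the close relative of *SPL3*, gave another picture. Its brightest probe, A_84_P752556, read 11.84, 11.71 and 11.77 in Col-0 and 11.83, 11.60 and 11.77 in OsbHLH068OE. The groups overlapped almost wholly, and the difference of −0.04 had an interval from −0.27 to 0.18 (limma adjusted P = 0.817). A second probe of the same transcript, A_84_P784342, differed by −0.09 (−0.30 to 0.13). The third, A_84_P750656, is assigned to another *SPL4* transcript. It read 9.31, 9.40 and 9.45 in Col-0 and 9.15, 8.99 and 9.29 in OsbHLH068OE. These groups did not overlap, but the difference was small, −0.25 (95% interval −0.50 to 0.01, limma adjusted P = 0.261). The difference measured for *SPL3* A_84_P11678, −0.54, lies outside the intervals of all 3 *SPL4* probes. The interval of that *SPL3* probe, −0.80 to −0.28, overlaps those of A_84_P750656 and A_84_P784342. Whether *SPL3* and *SPL4* changed unequally was not tested.

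*SPL5*, the third of the small-protein genes, had the highest difference of the 19 probes. Its only probe, A_84_P167633, read 9.79, 9.46 and 9.35 in Col-0 and 9.78, 9.62 and 9.93 in OsbHLH068OE. Col-0 replicate 1 lay among the OsbHLH068OE arrays while the other 2 Col-0 arrays lay below them. The difference was 0.24 (95% interval −0.11 to 0.60, limma adjusted P = 0.394). It was −0.01 on slide 1 and 0.37 on slide 2. Leaving out Col-0 replicate 1 gave 0.37 as well (limma adjusted P = 0.111).

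**Figure D2:**
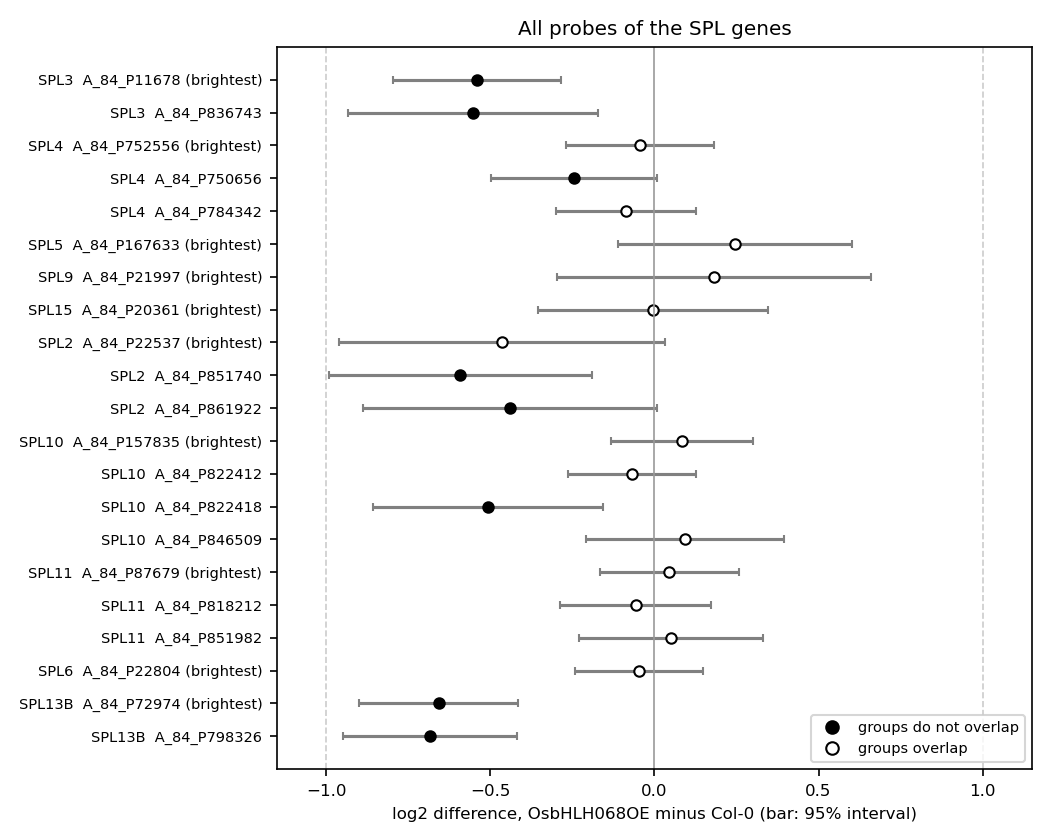
Log2 difference, OsbHLH068OE minus Col-0 (horizontal axis), of all 19 probes of the *SPL* genes and both probes of *SPL13B*, with 95% intervals from the fit to 3 arrays per group; filled points mark probes whose groups do not overlap. Both *SPL3* probes, all 3 *SPL2* probes and both *SPL13B* probes lie left of 0, no point reaches the dashed lines at −1 and 1 that the study used, and 1 *SPL10* probe lies apart from the other 3.

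*SPL9* and *SPL15*, a pair that acts redundantly in the shoot apex, showed no separation of the groups, and in both Col-0 replicate 1 stood above the other Col-0 arrays. *SPL9* (A_84_P21997) read 10.73, 10.10 and 10.12 in Col-0 and 10.50, 10.35 and 10.65 in OsbHLH068OE. The difference was 0.18 (95% interval −0.30 to 0.66, limma adjusted P = 0.635), with −0.23 on slide 1 and 0.39 on slide 2. Replicate 1 of Col-0 was thus above all OsbHLH068OE arrays, while the other 2 Col-0 arrays were below all of them. Without it the *SPL9* difference was 0.39 (adjusted P = 0.0929), in a fit where 6.25% of all probes and 0 of the 19 passed 0.05.

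*SPL15* (A_84_P20361) had the same arrangement at a smaller scale. It read 9.53, 9.10 and 9.11 in Col-0 and 9.25, 9.12 and 9.35 in OsbHLH068OE, a difference of −0.01 (95% interval −0.36 to 0.35, limma adjusted P = 0.988). The value turned to 0.14 without Col-0 replicate 1. For both genes the intervals include changes of about 0.3 in either direction.

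The array that stood apart for these genes was also the highest Col-0 array for several, not all, genes of the meristem and flower. *STM*, which keeps the shoot meristem undifferentiated, read 10.76 in Col-0 replicate 1 and 10.22 and 10.24 in the other 2 Col-0 arrays. *KNAT1*, a related homeobox gene, read 10.41 there and 9.47 and 9.41 in the others. The summed linear signal of 5 meristem markers, 4 or 5 of which were well above background on each array, ran from 2161 to 3427 in Col-0, highest in replicate 1, and from 2100 to 2649 in OsbHLH068OE. By their mean log2 signal, OsbHLH068OE replicate 3 was highest of the 6 arrays, at 7.83, with Col-0 replicate 1 at 7.76. *CLV3* went the other way, with 4.74, 5.03 and 5.13 in Col-0 and 5.16, 5.36 and 5.41 in OsbHLH068OE (difference 0.34, limma adjusted P = 0.234). The summed signal of 4 flower markers, all well above background, ran from 4712 to 6977 in Col-0, again highest in replicate 1, and from 3650 to 5319 in OsbHLH068OE, highest in replicate 3. *SEP3*, a floral organ identity gene, read lower in OsbHLH068OE on its brighter probe, with 11.16, 10.41 and 10.57 in Col-0 and 9.79, 9.61 and 10.39 in OsbHLH068OE, a difference of −0.78 (limma adjusted P = 0.209). Its other probe differed by −0.91 (limma adjusted P = 0.123), and the groups overlapped on neither. *AG*, which specifies stamens and carpels, read higher in OsbHLH068OE, by 0.55 and 0.53 on its 2 probes (limma adjusted P = 0.228 and adjusted P = 0.254), without overlap on the second. *AP3*, another organ identity gene, differed by 0.005. *WUS* and *CLV3*, which define the stem cell niche, had low log2 signals on every array, from 4.39 to 5.50. *CLV3* was nevertheless well above background on all 6 arrays, and *WUS* was so on only some. Whether the share of shoot apex or floral bud in a sample set these *SPL* values was not tested. *STM*, *KNAT1*, *SEP3*, *AG*, *AP3*, *WUS* and *CLV3* were named after their values were seen.

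**Figure D3:**
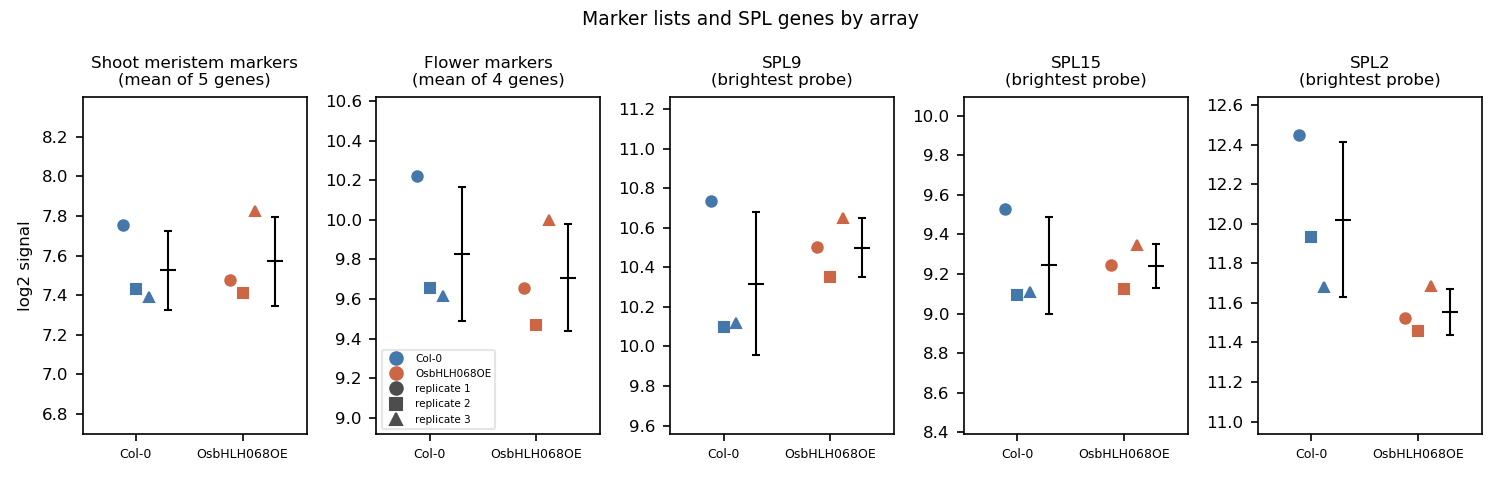
Log2 signal on each array of the mean over 5 shoot meristem markers and over 4 flower markers, and of the brightest probe of *SPL9*, *SPL15* and *SPL2*; bars are means with SD (n = 3). Col-0 replicate 1 (blue circle) is the highest Col-0 array in every panel, with 10.73 for *SPL9* against 10.10 and 10.12 in the other 2.

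*SPL2* was lower in OsbHLH068OE on all 3 probes, by an amount that rested in part on that array. Its brightest probe, A_84_P22537, read 12.45, 11.93 and 11.68 in Col-0 and 11.53, 11.46 and 11.68 in OsbHLH068OE. Col-0 replicate 3 and OsbHLH068OE replicate 3 were nearly equal, and the Col-0 spread was wide (12.02 ± 0.391, against 11.56 ± 0.117, SD, n = 3). The difference was −0.46 (95% interval −0.96 to 0.03, limma adjusted P = 0.275), with −0.92 on slide 1 and −0.24 on slide 2, and it was −0.25 without Col-0 replicate 1.

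The other *SPL2* probes separated the groups. A_84_P851740 read 8.78, 8.50 and 8.16 in Col-0 and 7.92, 7.82 and 7.92 in OsbHLH068OE, and its difference of −0.59 (95% interval −0.99 to −0.19, limma adjusted P = 0.150) was the lowest of the 19. A_84_P861922 read 8.67, 8.26 and 7.95 in Col-0 and 7.84, 7.88 and 7.84 in OsbHLH068OE, a difference of −0.44 (−0.89 to 0.01, limma adjusted P = 0.258). On all 3 probes Col-0 replicate 1 was the highest array and the difference was larger on slide 1 than on slide 2. Without that array the 3 differences were −0.25, −0.44 and −0.25, in the order given, all still below 0.

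*SPL10* and *SPL11*, neighbours on chromosome 1 with 0 genes starting between them, had differences near 0 on their brightest probes, with overlapping groups. For *SPL10*, A_84_P157835 read 10.54, 10.47 and 10.39 in Col-0 and 10.45, 10.55 and 10.65 in OsbHLH068OE, a difference of 0.08 (95% interval −0.13 to 0.30, limma adjusted P = 0.627). For *SPL11*, A_84_P87679 read 10.27, 10.17 and 10.17 in Col-0 and 10.18, 10.21 and 10.36 in OsbHLH068OE, a difference of 0.05 (−0.17 to 0.26, adjusted P = 0.801). The remaining *SPL11* probes differed by 0.05 and −0.06. Neither interval of the brightest probes reaches the −0.54 measured for *SPL3*, but whether these genes and *SPL3* changed unequally was not tested.

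The 4 probes of *SPL10* did not move together. A_84_P846509, assigned to the same transcript as the brightest probe (NM_202192), differed by 0.09, and A_84_P822412, assigned to NM_001084136, by −0.07. A_84_P822418, assigned to NM_001036019, was the exception: it read 6.67, 6.84 and 7.03 in Col-0 and 6.16, 6.30 and 6.56 in OsbHLH068OE, without overlap. Its difference was −0.51 (SE 0.143, 95% interval −0.86 to −0.16, limma adjusted P = 0.154), at −0.51 on slide 1 and −0.50 on slide 2, and the adjusted P was 0.0702 with slide as a block. The probe was well above background on all 6 arrays. It was also sensitive to how background was removed, falling to −0.32 without background correction.

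Whether probes of 1 gene changed unequally was read from the log2 ratio of each further probe to the brightest probe of its gene on the same array. For A_84_P822418 this ratio was −3.86, −3.63 and −3.36 in Col-0 and −4.29, −4.25 and −4.09 in OsbHLH068OE, a group difference of −0.59. For A_84_P822412 the group difference was −0.15, also without overlap. These were the only 2 of the 11 such ratios whose groups did not overlap. For single probes the groups did not overlap in 12.2% (lower) and 14.8% (higher) of all probes. The share over such ratios of all genes was not computed. Each of the 2 had the smallest p an exact two-sided permutation test allows, 0.1, which is 0.55 after Benjamini-Hochberg adjustment over the 11. The ratio says nothing of the amounts of the transcripts, since probes differ in brightness.

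**Figure D4:**
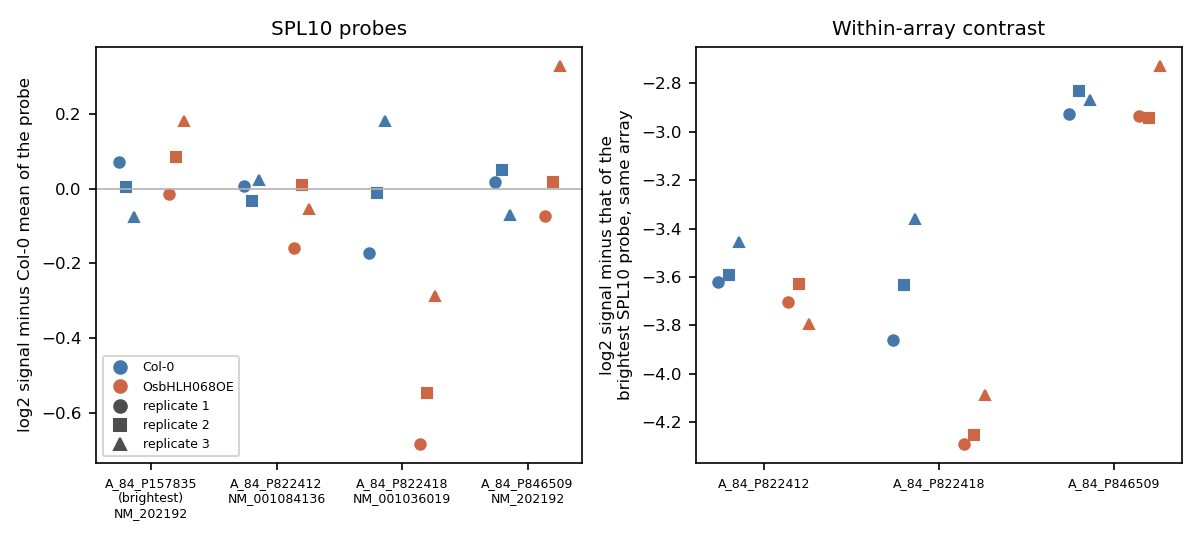
Left, log2 signal of each *SPL10* probe on each array minus the Col-0 mean of that probe; right, log2 signal of each further probe minus that of the brightest *SPL10* probe on the same array. A_84_P822418 is lower in all 3 OsbHLH068OE arrays in both panels, with ratios from −4.29 to −4.09 against −3.86 to −3.36 in Col-0.

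*SPL6*, which in addition to its place in the miR156 set has been linked to defence, had closely grouped arrays. Its probe, A_84_P22804, read 8.62, 8.66 and 8.65 in Col-0 and 8.55, 8.55 and 8.70 in OsbHLH068OE. The difference of −0.05 had an interval of −0.24 to 0.15 (limma adjusted P = 0.774).

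*SPL13B* was lower in OsbHLH068OE on both of its probes. A_84_P72974 read 11.13, 11.23 and 10.98 in Col-0 and 10.39, 10.42 and 10.56 in OsbHLH068OE, with means of 11.11 ± 0.125 and 10.46 ± 0.0922 (SD, n = 3). A_84_P798326 ran from 9.86 to 10.15 in Col-0 and from 9.25 to 9.44 in OsbHLH068OE. On neither probe did the groups overlap. The first differed by −0.66 (SE 0.0995, 95% interval −0.90 to −0.41, 0.634 times Col-0, limma adjusted P = 0.0628) and the second by −0.68 (−0.95 to −0.42, limma adjusted P = 0.0692). Both were lower on either slide, by −0.74 and −0.73 on slide 1 and −0.61 and −0.66 on slide 2. Whether any of the signal came from *SPL13A* was not tested.

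As with *SPL3*, the call for *SPL13B* depended on the settings and the size of the difference did not. The first probe passed 0.05 with offsets of 50 and 16, without background correction, with dim probes left out, with an intensity trend and a robust prior, and without Col-0 replicate 1, at limma adjusted P values from 0.0148 to 0.0475. The second passed in the same 6 fits, at 0.0196 to 0.0498. Over all 20 alternatives the differences ran from −0.72 to −0.60 and from −0.76 to −0.61.

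**Figure D5:**
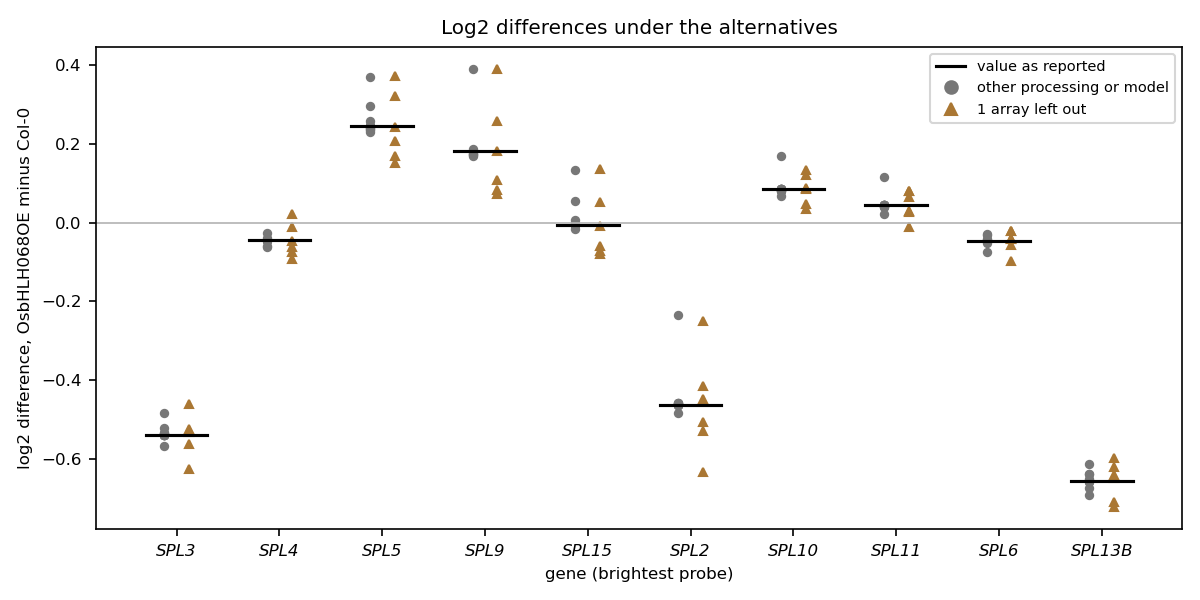
Log2 difference, OsbHLH068OE minus Col-0 (vertical axis), of the brightest probe of each gene as reported (line), under other processing or models (grey points) and with 1 array left out (triangles). *SPL3* stays between −0.63 and −0.46 and *SPL13B* between −0.72 and −0.60, while *SPL2* reaches −0.24 and *SPL9* 0.39.

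The upstream layer could be described only in part. No probe was matched to any of 8 *MIR156* genes or to *MIR172B*, so the precursor of the microRNA itself was not analysed here. Of 11 genes whose products regulate *MIR156* transcription, 16 probes were measured: 13 were lower (46.8% of all probes were) and 3 higher, 3 had an unadjusted P under 0.05, all lower (against 8.80% of all probes), and 0 an adjusted P under 0.05. The 3 were the only *VAL1* probe and both *BMI1B* probes, so these are not counts of independent genes. The median difference of the 16 was −0.07, against 0.02 for all probes. *VAL1*, a B3-domain protein that recruits Polycomb silencing, read 11.35, 11.34 and 11.23 in Col-0 and 10.93, 10.94 and 11.00 in OsbHLH068OE, a difference of −0.35 (SE 0.0766, limma adjusted P = 0.108). *BMI1B*, a Polycomb RING-finger protein, differed by −0.49 and −0.24 on its 2 probes. *VAL1* and *BMI1B* were named after their values were seen.

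The machinery that makes and uses microRNAs showed no call. Its 9 genes carried 15 probes, of which 6 were lower and 9 higher, with a median difference of 0.04. An unadjusted P under 0.05 was found for 0 lower and 1 higher probe, against 8.80% and 11.0% of all probes. That 1 probe was *DCL1*, the Dicer enzyme of the microRNA pathway, named after its values were seen. It read 11.95, 11.69 and 11.63 in Col-0 and 12.26, 12.05 and 12.04 in OsbHLH068OE, a difference of 0.36 (95% interval 0.07 to 0.65, limma adjusted P = 0.194).

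The *SPL* genes that lack a miR156 site gave a comparison within the family. *SPL16* had no matched probe. The other 5 of 6 genes carried 9 probes, of which 5 were lower and 4 higher, with a median difference of −0.03. An unadjusted P under 0.05 was found for 1 lower and 0 higher, against 8.80% and 11.0% of all probes, and an adjusted P under 0.05 for 0. That 1 was a probe of *SPL12*, named after its values were seen, A_84_P802873, at −0.47 (limma adjusted P = 0.131), while its other probes differed by −0.07 and −0.03. The difference between the genes with and without a site was not tested.

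Genes that SPL proteins are known to activate formed the downstream layer. Of the 9 probes of 7 such genes, 8 were lower (46.8% of all probes were) and 1 higher in OsbHLH068OE, 4 had an unadjusted P under 0.05, all lower (against 8.80% of all probes), and 0 an adjusted P under 0.05. The 4 were both probes of *FUL* and both of *AGL42*, so these are not counts of independent genes. The median difference of the 9 was −0.26, against 0.02 for all probes. *SOC1*, a floral integrator, read 12.98, 13.25 and 13.13 in Col-0 and 12.95, 12.75 and 12.91 in OsbHLH068OE, a difference of −0.25 (95% interval −0.51 to 0.01, limma adjusted P = 0.261). The groups just failed to overlap.

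*FUL*, which SPL proteins activate in the leaf and at the apex, read 11.48, 11.64 and 11.51 in Col-0 and 11.11, 11.20 and 11.39 in OsbHLH068OE on its brighter probe. That difference was −0.31 (limma adjusted P = 0.192), and on its other probe it was −0.47 (limma adjusted P = 0.183), with no overlap on either. *LFY*, the master gene of floral meristem identity, differed by −0.05 (limma adjusted P = 0.758) at a log2 signal from 6.24 to 6.39 in all 6 arrays.

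*AGL42*, a relative of *SOC1* named after its values were seen, had the largest differences of the downstream genes. Its probes read 10.11, 10.17 and 10.15 in Col-0 against 9.29, 9.25 and 9.71 in OsbHLH068OE, and 9.10, 8.98 and 8.99 against 8.20, 8.28 and 8.58. The differences were −0.73 and −0.67 (limma adjusted P = 0.0909 and adjusted P = 0.0832). *SEP3*, described above among the flower markers, was not on this list.

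On the arrays as a whole, between 70.9% and 74.0% of the probe spots were well above background, median signals lay from 284 to 356, 0 spots were saturated, and all 19 *SPL* probes and both *SPL13B* probes were well above background on every array. Leaf markers were bright on the brightest probe of each gene, with a mean log2 signal over 4 genes of 16.41 to 16.46 in Col-0 and 16.44 to 16.51 in OsbHLH068OE. Of all 26 probes of these genes, 8 were lower (46.8% of all probes were) and 18 higher, and 0 had an adjusted P under 0.05. Root markers were near background, with 0 to 2 of 6 genes well above it on an array and a summed linear signal of 116 to 141 in Col-0 and 126 to 130 in OsbHLH068OE. The introduced rice gene was not analysed here.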

How the data were processed

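The authors hybridised Cy3-labelled RNA of 3 Col-0 and 3 OsbHLH068OE samples and read the arrays with Feature Extraction 10.7.1.1. The deposited intensity values used here are medians of the spot pixels and of the local background pixels, before any subtraction. The deposited log2 values are the authors' own, from limma (normexp, then quantile). Remade from the intensities they differed by at most 5.00e-09, and they served as an alternative.

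Normexp (offset 0) was run over all 45220 spots. The 1417 control spots were then dropped, quantile normalization was applied to log2 values, spots marked as outliers were removed and the 50 repeated probes averaged. All 43603 probes were fitted with lmFit and eBayes (limma 3.58.1, R 4.3.3, package data.table of version 1.17.8), two-sided, with Benjamini-Hochberg adjustment over all of them. The fit was tested on simulated data with equal noise for every probe and larger differences than those of the *SPL* probes. That test does not cover differences of their size. Intervals are 95%. Probes were named by transcript through RefSeq (TAIR10.1), which matched 34358 probes (78.8%). The printed probe sequence came from the study's supplement. The miR156 sites, promoters and proteins of the genes were not analysed here. The sample labels number the replicates, and the series' design text calls them biological. The methods also say that labelled cRNA was pooled before hybridisation, without saying which, so SDs, intervals and P values measure the spread between these arrays, which may be partly technical.

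The members and lists were chosen with earlier results of these data known. Every probe of the 10 genes is named, with *SOC1*, *FUL*, *LFY* and any listed gene called in the fit; other names are marked where they stand. In all 20 alternatives were tried: offsets of 16 and 50, no background correction, scaling to the 75th percentile of the scanner's processed signal or of normexp values, cyclic loess, the deposited values, outliers kept, dim probes left out, a trended and robust prior, the t-test of the methods, replicate and slide blocks, slide 2 alone, and each array left out.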

Additional observations from a re-analysis of the deposited data

How the results depend on the processing

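No *SPL* probe was a DEP under any of the 20 alternatives. The count of the 19 with an adjusted P under 0.05 was 0 and became 1, always *SPL3*, with an offset of 50, no background correction, dim probes left out or a trended robust prior, and stayed 0 to 0 with any array left out. The count with an unadjusted P under 0.05 was 4, and was 4 to 6 with an array left out. It became 7 with an offset of 50 or 16, no background correction, cyclic loess or the trended prior. The share of all probes at that level in those fits was not computed. Adjusted calls among all probes, 233 in the main fit, were 1564, 793, 1520, 221 and 1380 in those fits, in that order. The 4 related lists held 9, 15, 16 and 9 probes in the main fit. In them 0 adjusted calls became 4 (offset 50, dim probes left out), 3 (no background correction, trended prior) or 2 (offset 16). Of all probes tested, 3.59%, 4.26% (of the 31272 kept), 3.49%, 3.16% and 1.82% passed in these fits, in that order. The calls were both *AGL42* probes in all 5, with *VAL1* in all but offset 16 and *BMI1B* where there were 4.

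Of the single-probe differences under the alternatives, 391 kept direction and call, 16 gained a call and 13 changed sign, all of probes within 0.10 of 0. *SPL15* became 0.0555 (processed signal), 0.00584 (normexp at the 75th percentile) and 0.13 (slide 2), and ran from −0.0792 to 0.14 with an array left out. *SPL11* A_84_P851982 became −0.0239 (processed signal) and −0.00223 (cyclic loess) and ran from −0.0568 to 0.13, and A_84_P818212 became 0.0124 on slide 2 and ran from −0.10 to 0.0111. The ranges with an array left out were −0.0112 to 0.0813 for *SPL11* A_84_P87679, −0.0930 to 0.0214 for *SPL4* A_84_P752556 and −0.0271 to 0.17 for *SPL10* A_84_P846509.

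Same-numbered arrays of the groups had deviation correlations of 0.262, 0.0983 and 0.0128, so the numbers were not taken as pairs, and replicate 1 of each group also shared a slide. With the replicate block 0 of the 19 and 1 of all probes had an adjusted P under 0.05, with 584 DEPs in all against 510, and the adjusted P was 0.123 for *SPL3* A_84_P11678 and for *SPL13B* A_84_P72974. Col-0 replicates 2 and 3 correlated best with OsbHLH068OE replicates 3 (0.136) and 2 (0.126). DEPs overall ranged from 320 (no background correction) to 1055 (without Col-0 replicate 1). The methods' t-test as remade here gave 396, and 0 probes after Benjamini-Hochberg adjustment. That count of DEPs is lower than the one the study reported, so the study's own calls were not reproduced.

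With 3 arrays per group, an increase of about 0.3 could not be told from 0 for *SPL9*, *SPL15* and *SPL5*. The same held for a decrease of about 0.3 for *SPL9* and *SPL15*. The data came from 1 transformed line, and no probe was matched to *SPL13A* or to the *MIR156* genes.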
